A study of Mus musculus with 12 samples.

Results

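AP-1 is a family of dimeric transcription factors built from FOS, JUN, ATF and BATF proteins, and 8 of its genes, Fos, Fosb, Fosl2, Jun, Junb, Jund, Batf and Atf3, were followed here in mouse tumour T cells. They were chosen from the 32285 genes of the deposited matrices by name, for comparison across the deposited clusters 0 to 8 and between anti-ACBP and isotype mice, with results of both comparisons known. Values from those comparisons are therefore given as a description for the 8 genes, with no p-value and no verdict on any single gene. All 8 had UMIs in every class of cell and passed the filter on low counts in every comparison. A UMI marks a single captured RNA molecule.

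FOS proteins pair with JUN proteins and bind DNA at AP-1 sites, whereas JUN proteins can also pair among themselves. In T cells, antigen receptor signalling through MAP kinases induces Fos, Fosb, Jun and Atf3 within minutes as immediate early genes, and AP-1 acts with NFAT at cytokine promoters. BATF has no activation domain of its own and acts with JUN proteins and IRF4 in differentiating T cells, including exhausted and regulatory cells. JUNB and JUND differ from JUN in the promoters they activate, and ATF3 is a stress-induced partner that can repress.

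The cells came from MCA205 fibrosarcomas grown under the skin of C57Bl/6 mice, all of which received oxaliplatin at 10 mg/kg and then anti-PD1 at 200 µg. The 3 anti-ACBP mice also received an antibody that neutralizes ACBP/DBI, an acyl-CoA-binding protein, and the 3 isotype mice an isotype control antibody, each at 2.5 mg/kg every 2 days around the chemotherapy, ending 1 day before anti-PD1. Oxaliplatin came on day 8 of tumour growth, anti-PD1 8 days later, and the tumours were taken 2 days after that. Dissociated tumours were sorted for CD4+ and CD8+ T cells, mixed 1 to 1, and sequenced as single cells from the 5′ end together with their T cell receptors. The labels give no other difference between the groups, and each library is a different mouse. The 6 libraries held 30749 cells in the deposited cell table, with 2923 to 7238 cells and 27791735 to 65519423 UMIs each. Cells fell into 16945 CD8 T cells, 8902 conventional CD4 T cells and 4706 regulatory T cells, and 196 had no class. Clusters 0, 3 and 6 counted as CD8, clusters 1 and 7 as conventional CD4 and cluster 2 as regulatory, and cells of clusters 4, 5 and 8 were assigned by their own Cd4, Cd8a, Cd8b1 and Foxp3 UMIs. Cells with more Cd4 than Cd8a and Cd8b1 UMIs are called CD4 lineage cells, and the reverse CD8 lineage cells. Lineage comparisons left out cells with a Foxp3 UMI. CD8 lineage cells made up 14.2%, 20.7% and 15.5% of the conventional CD4 class in anti-ACBP mice 1, 2 and 3. The shares were 12.0%, 4.69% and 17.8% in isotype mice 1, 2 and 3.

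The classes carried their defining markers. Summed Cd8a and Cd8b1 stood at 2172 to 2413 counts per 1000000 UMIs (CPM) in anti-ACBP CD8 T cells and 2224 to 2458 CPM in isotype CD8 T cells. The summed regulatory markers Foxp3, Ikzf2, Il2ra and Ctla4 reached 3247 to 4610.4 CPM in anti-ACBP regulatory T cells and 3661 to 4345 CPM in isotype regulatory T cells. Conventional CD4 T cells still held Cd8a and Cd8b1 at 275 to 444 CPM in anti-ACBP and 72.1 to 402 CPM in isotype libraries. Regulatory T cells held them at 67.9 to 115 CPM in anti-ACBP and 25.9 to 52.1 CPM in isotype libraries, without overlap. Fibroblast and tumour markers, Sparc, Col1a1, Col1a2, Col3a1 and Dcn, summed to at most 0.667 CPM in any class and library, and neutrophil markers to at most 0.469 CPM. Of 312 cell barcodes that occurred in more than 1 library and carried 1 TRB chain there, 0 had the same TRB chain in both.

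The promoters of Fos, Atf3, Junb and Fosl2 are printed here because the first pair was higher and the second pair lower in anti-ACBP mice. Each sequence is the 250 bases before the RefSeq start of the gene on build GRCm38.p6, read 5′ to 3′ on the strand of the gene. Capitals mark TGACG or its reverse complement, the first letters of the cyclic AMP response element that ATF and CREB proteins bind. The windows are chr12:85473640-85473889 (plus strand) for Fos, chr1:191183334-191183583 (minus strand) for Atf3, chr8:84978749-84978998 (minus strand) for Junb and chr5:32136222-32136471 (plus strand) for Fosl2.
Fos: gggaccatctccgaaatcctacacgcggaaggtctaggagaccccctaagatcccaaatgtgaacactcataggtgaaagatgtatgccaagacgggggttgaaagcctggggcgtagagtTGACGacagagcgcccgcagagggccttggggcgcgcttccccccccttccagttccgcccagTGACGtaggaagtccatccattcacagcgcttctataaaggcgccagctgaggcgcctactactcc
Atf3: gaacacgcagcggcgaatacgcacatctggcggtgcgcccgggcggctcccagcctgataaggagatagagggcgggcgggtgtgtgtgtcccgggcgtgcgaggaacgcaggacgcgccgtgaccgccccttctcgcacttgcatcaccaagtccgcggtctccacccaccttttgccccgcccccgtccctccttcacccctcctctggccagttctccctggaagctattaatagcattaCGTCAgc
Junb: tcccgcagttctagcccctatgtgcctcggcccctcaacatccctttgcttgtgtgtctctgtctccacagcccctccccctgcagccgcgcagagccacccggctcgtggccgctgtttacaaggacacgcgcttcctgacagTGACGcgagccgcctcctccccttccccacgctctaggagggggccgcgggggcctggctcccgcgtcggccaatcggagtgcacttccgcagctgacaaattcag
Fosl2: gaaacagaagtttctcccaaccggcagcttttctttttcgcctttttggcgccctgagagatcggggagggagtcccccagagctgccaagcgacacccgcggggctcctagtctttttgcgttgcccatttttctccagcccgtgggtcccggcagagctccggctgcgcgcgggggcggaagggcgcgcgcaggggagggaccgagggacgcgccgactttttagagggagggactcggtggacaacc

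TGACG occurred in 5 of the 8 members' windows on either strand, and in 17.9% of the 32536 RefSeq promoter windows of the same length. Its first base lay 129 and 66 bases before the start of Fos, 106 before Junb, 98 before Batf and 7 before Atf3. The window of Fosb overlaps the RefSeq span of the gene, so no position is given for it. The windows of Fosl2, Jun and Jund held none. The whole response element TGACGTCA, which contains TGACG, occurred in 0 of the 8 windows and 1.56% of all windows. The AP-1 site TGANTCA occurred in 0 of 8 and 6.73% of all, and the CArG box, which serum response factor binds, in 0 of 8 and 1.48% of all. These counts describe letters in the window and say nothing of binding.

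Fos, Fosb and Atf3 were higher, and Fosl2 and Junb lower, in anti-ACBP than in isotype mice in all 3 classes, with no overlap between the 3 anti-ACBP and 3 isotype mice in any class. Batf was higher on average in all 3 classes and Jund differed little. Of the 8 genes, 3 in the CD8 class (2 higher and 1 lower), 2 among conventional CD4 cells (both higher) and 3 in the regulatory class (2 higher and 1 lower) lay under an adjusted p of 0.05 in edgeR's quasi-likelihood fit across all genes. The same held for 0.929% of 11732 genes tested in CD8 T cells (0.486% higher, 0.443% lower). It held for 0.329% of 10933 genes among conventional CD4 T cells (0.247% higher, 0.0823% lower) and 3.34% of 10417 genes among regulatory T cells (2.04% higher, 1.30% lower). Nothing is read from those member counts, because the members were chosen with this contrast known. The groups did not overlap for 6 of 8 members in each class, against 24.4%, 21.0% and 26.8% of all genes tested in the same order of classes. In CD8 T cells the count of members called was 0 without isotype mouse 3, 1 without anti-ACBP mouse 2 and 6 without isotype mouse 1. For conventional CD4 T cells it was 0 without anti-ACBP mouse 1 or isotype mouse 3, 1 without anti-ACBP mouse 2 or 3, and 0 among cells whose own Cd4 and Cd8 UMIs match the class. For regulatory T cells it was 1 without anti-ACBP mouse 2.

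**Figure D1:**
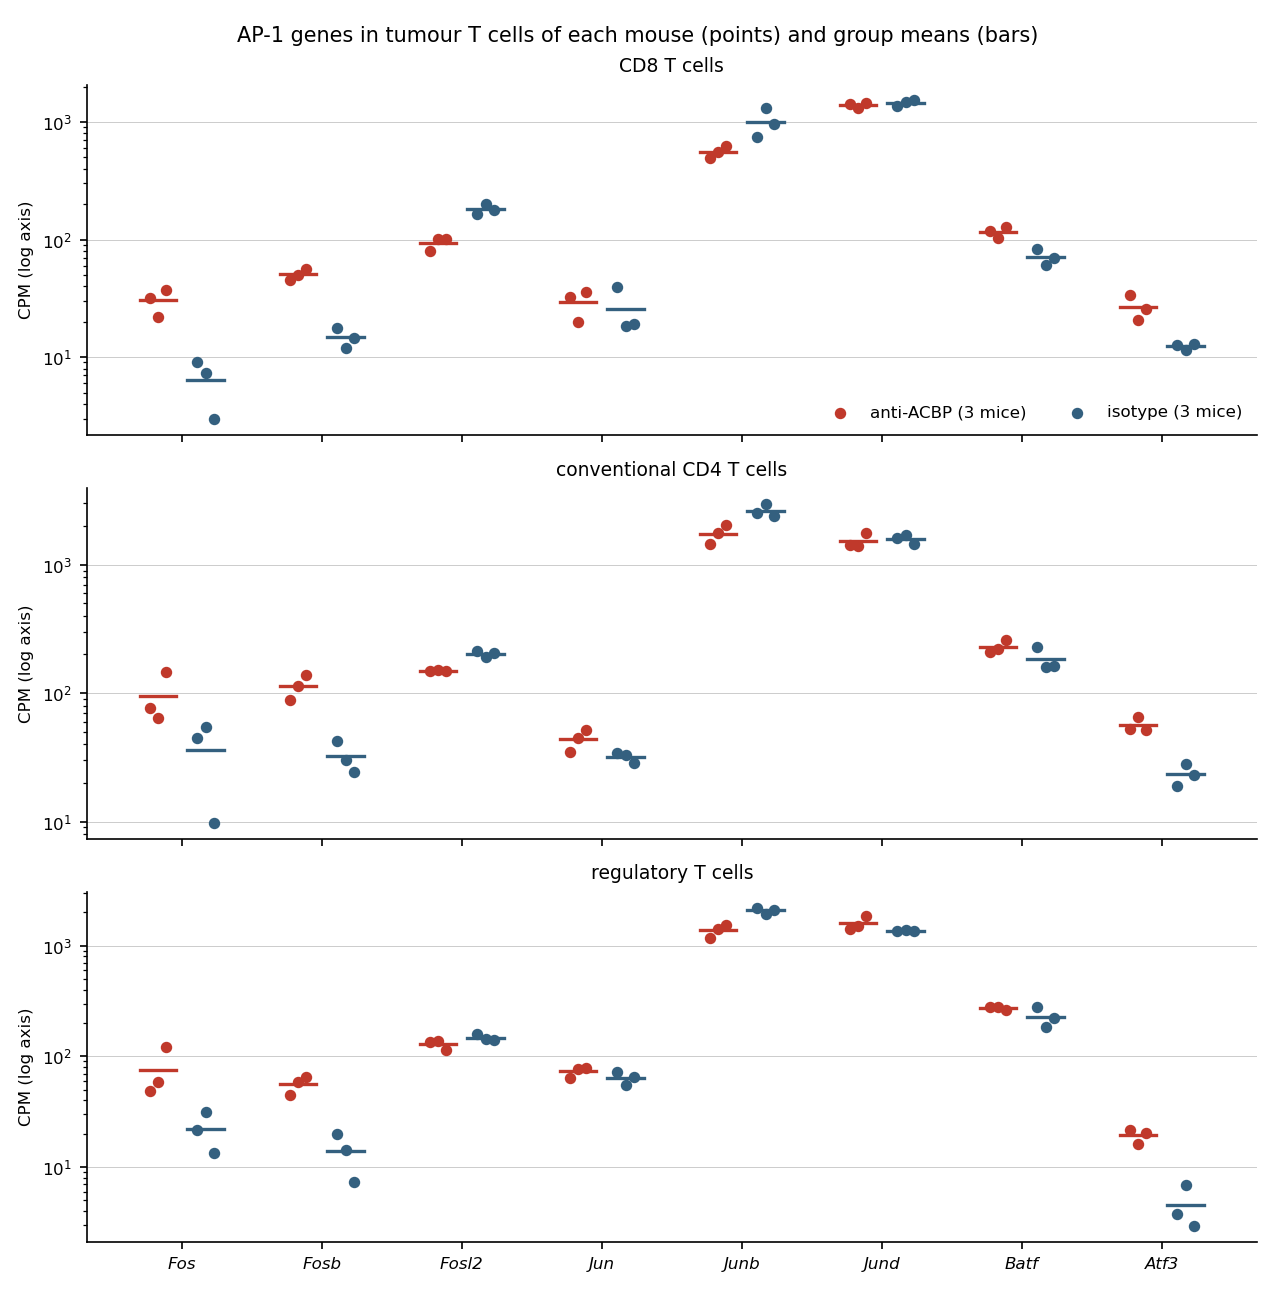
CPM of the 8 genes (log axis) in CD8, conventional CD4 and regulatory T cells; each point is a mouse, red anti-ACBP and blue isotype (3 mice each), and bars are group means. For Fos, Fosb and Atf3 all anti-ACBP points lie above all isotype points in each class, and for Fosl2 and Junb all lie below.

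Fos, the founding FOS subunit and an immediate early gene, stood at 31.9, 21.7 and 37.6 CPM in CD8 T cells of anti-ACBP mice 1, 2 and 3, against 9.01, 7.31 and 2.96 CPM in those of isotype mice 1, 2 and 3. Conventional CD4 T cells held it at 76.8, 63.6 and 145 CPM in anti-ACBP mice, against 44.8, 54.1 and 9.77 CPM in isotype mice. Regulatory T cells held it at 49.0, 58.2 and 121 CPM in anti-ACBP mice, against 21.6, 31.4 and 13.4 CPM in isotype mice. Anti-ACBP mouse 3 was the highest and isotype mouse 3 the lowest in every class, and the groups did not overlap. In CD4 lineage cells of cluster 1 alone they did overlap, at 41.7, 62.3 and 139 CPM with anti-ACBP and 30.9, 57.4 and 9.32 CPM with isotype. The log2 fold changes were 2.18 ± 0.40 for CD8, 1.33 ± 0.64 for conventional CD4 and 1.71 ± 0.47 for regulatory T cells (SE of the fit, 3 mice against 3).

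Fosb, a FOS subunit with similar induction, was also higher in anti-ACBP mice. It stood at 45.5, 49.6 and 56.3 CPM in CD8 T cells of anti-ACBP mice, against 17.6, 12.0 and 14.6 CPM in those of isotype mice. Values among conventional CD4 T cells were 87.8, 115 and 139 CPM in anti-ACBP mice and 42.3, 30.1 and 24.5 CPM in isotype mice. Regulatory T cells had 45.1, 59.3 and 64.6 CPM in anti-ACBP mice and 20.03, 14.4 and 7.27 CPM in isotype mice. Every anti-ACBP mouse was above every isotype mouse. The log2 fold changes were 1.73 ± 0.14, 1.78 ± 0.24 and 1.90 ± 0.33 in CD8, conventional CD4 and regulatory T cells (SE).

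Fosl2 encodes FRA-2, a FOS-related subunit without a strong activation domain, and was lower in anti-ACBP mice. It stood at 79.8, 101 and 100.2 CPM in CD8 T cells of anti-ACBP mice, against 166, 201 and 179 CPM in those of isotype mice. The corresponding values in conventional CD4 T cells were 148, 152 and 149 CPM with anti-ACBP and 212, 189 and 207 CPM with isotype. Regulatory T cells had 136, 139 and 115 CPM with anti-ACBP and 158, 144 and 141 CPM with isotype. The groups were apart in each class, by the widest margin in CD8 T cells. The log2 fold changes were -0.99 ± 0.10 for CD8, -0.42 ± 0.08 for conventional CD4 and -0.20 ± 0.10 for regulatory T cells (SE); the difference between classes was not tested.

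Jun, the JUN subunit that forms the classical heterodimer with FOS, differed less between the groups. It stood at 32.2, 20.04 and 35.7 CPM in CD8 T cells of anti-ACBP mice and 39.1, 18.5 and 19.3 CPM in those of isotype mice, and the groups overlapped. In regulatory T cells the values, 64.3, 77.1 and 78.9 CPM with anti-ACBP and 71.8, 55.3 and 65.6 CPM with isotype, overlapped too. In conventional CD4 T cells anti-ACBP mice had 35.1, 45.1 and 51.4 CPM and isotype mice 34.0, 32.9 and 28.6 CPM, which did not overlap. That class includes CD8 lineage cells. In CD4 lineage cells of cluster 1 alone the groups overlapped, at 21.3, 22.9 and 39.7 CPM with anti-ACBP and 21.4, 28.0 and 14.3 CPM with isotype. The log2 fold changes were 0.14 ± 0.36, 0.46 ± 0.14 and 0.15 ± 0.12 in CD8, conventional CD4 and regulatory T cells (SE).

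Junb, a JUN subunit that restrains JUN and supports T helper differentiation, was lower in anti-ACBP mice. It stood at 491, 551 and 627 CPM in CD8 T cells of anti-ACBP mice, against 749, 1310.2 and 963 CPM in those of isotype mice. Values among conventional CD4 T cells were 1451, 1766 and 2019 CPM with anti-ACBP and 2543, 2966 and 2383 CPM with isotype. Regulatory T cells had 1173, 1424 and 1534 CPM with anti-ACBP and 2214, 1949 and 2122 CPM with isotype. The groups were apart in each class, with log2 fold changes of -0.88 ± 0.19 for CD8, -0.58 ± 0.12 for conventional CD4 and -0.63 ± 0.09 for regulatory T cells (SE).

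Jund, a JUN subunit with rather steady expression, averaged 1400.3 ± 71.7 CPM in CD8 T cells of anti-ACBP mice and 1455 ± 76.6 CPM in those of isotype mice (SD, n = 3 each). It averaged 1537 ± 209 CPM with anti-ACBP and 1587 ± 124 CPM with isotype in conventional CD4 T cells, and the groups overlapped in both classes. Among regulatory T cells the anti-ACBP mice had 1428, 1514 and 1868 CPM and the isotype mice 1359, 1393 and 1348 CPM, which did not overlap (log2 fold change 0.21 ± 0.09, SE).

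Batf stood at 118, 103 and 127 CPM in CD8 T cells of anti-ACBP mice, against 83.8, 61.3 and 69.9 CPM in those of isotype mice (log2 fold change 0.67 ± 0.13, SE), and the groups were apart. In conventional CD4 T cells it averaged 229 ± 26.7 CPM with anti-ACBP and 183 ± 37.5 CPM with isotype (SD, n = 3 each), and in regulatory T cells 274 ± 10.5 CPM with anti-ACBP and 229 ± 48.2 CPM with isotype. Isotype mouse 1 reached the anti-ACBP values in both CD4 classes, where the groups overlapped.

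Atf3 stood at 33.8, 20.7 and 25.6 CPM in CD8 T cells of anti-ACBP mice, against 12.6, 11.6 and 12.9 CPM in those of isotype mice. Values among conventional CD4 T cells were 52.9, 64.7 and 51.4 CPM with anti-ACBP and 19.0, 28.0 and 22.9 CPM with isotype. Regulatory T cells had 21.6, 16.004 and 20.4 CPM with anti-ACBP and 3.78, 6.93 and 2.91 CPM with isotype. All anti-ACBP mice were above all isotype mice. The log2 fold changes were 1.09 ± 0.18 for CD8, 1.29 ± 0.15 for conventional CD4 and 2.11 ± 0.28 for regulatory T cells (SE).

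Genes outside the family that act in the same pathway, or are induced with it, were tested in the same contrast. Their lists were also chosen with earlier results of these data known. The counts and adjusted p-values below are therefore no independent support for the members' differences. Of 26 other immediate early genes that also respond to tissue dissociation, 8 rose and 0 fell in regulatory T cells (median log2 fold change 0.54, against -0.01 over all genes tested). In CD8 T cells 1 rose and 0 fell (median 0.28, against -0.003), and in conventional CD4 T cells 0 passed (median 0.28, against -0.01). The share of all genes that rose was 2.04% in regulatory, 0.486% in CD8 and 0.247% in conventional CD4 T cells.

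Among regulatory T cells the 4 of these genes with the smallest p were Sgk1, Dusp5, Ier2 and Socs3. Sgk1, a kinase regulated by serum and glucocorticoids, averaged 53.9 ± 9.04 CPM with anti-ACBP and 15.8 ± 3.31 CPM with isotype (SD, n = 3 each; edgeR adjusted p = 0.0018). Socs3, a suppressor of cytokine signalling, averaged 68.4 ± 13.5 CPM with anti-ACBP and 26.7 ± 9.08 CPM with isotype (edgeR adjusted p = 0.0355). Dusp5, a phosphatase of ERK kinases, and Ier2, an immediate early gene, rose by 0.50 ± 0.09 and 0.58 ± 0.11 (log2, SE). Cd8a and Cd8b1 UMIs were also higher in anti-ACBP than in isotype regulatory T cells. Among cells whose own UMIs match the class, 5 of the 26 genes passed, and Socs3 did not (edgeR adjusted p = 0.0800). Among regulatory T cells called G1 in the deposited phase column, 5 of the 26 genes passed. In CD8 T cells the gene that rose was Egr1, a zinc finger transcription factor, at 66.1 ± 10.8 CPM with anti-ACBP and 29.5 ± 5.77 CPM with isotype (edgeR adjusted p = 0.0395).

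Of 24 AP-1 and NFAT target genes, 22 were tested in regulatory T cells, where 3 rose and 0 fell (median 0.56, against -0.01 over all genes). Cd69, an early activation antigen, averaged 183 ± 21.5 CPM with anti-ACBP and 122 ± 10.4 CPM with isotype (SD, n = 3 each; edgeR adjusted p = 0.0201). The costimulatory receptor gene Icos rose by 0.44 ± 0.09 and Tnfrsf9, which encodes 4-1BB, by 0.38 ± 0.08 (log2, SE). Among regulatory T cells called G1 in the deposited phase column, 0 of the targets passed. Cells called S or G2M there were 160 of 716, 86 of 478 and 50 of 334 in anti-ACBP mice 1, 2 and 3. In isotype mice 1, 2 and 3 they were 496 of 1396, 265 of 879 and 318 of 903. How far phase contributed to these differences was not tested. In conventional CD4 T cells 2 of 23 tested rose and 0 fell (median 0.29), namely Il2ra, the alpha chain of the interleukin-2 receptor, by 0.73 ± 0.12, and Fasl, the ligand of the death receptor FAS, by 0.48 ± 0.08 (edgeR adjusted p = 0.0486 for each). Neither Il2ra nor Fasl passed among cells whose own UMIs match the class. Nor did either pass without cells of 2 or more TRB chains. In CD8 T cells 0 of 22 passed (median 0.17, against -0.003 over all genes).

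Among upstream kinases, partners and other bZIP genes, 0 or 1 passed per list and class. Of all genes tested, 2.04% rose in regulatory T cells and 0.443% fell in CD8 T cells. Of 25 MAP kinase and SRF genes, 1 rose in regulatory T cells, Map2k3, a kinase of p38, at 266 ± 9.47 CPM with anti-ACBP and 196 ± 16.7 CPM with isotype (SD, n = 3 each; edgeR adjusted p = 0.0355), and 0 passed in the other classes. Of 10 NFAT, IRF, ETS and RUNX partners, 1 rose in regulatory T cells, Irf4, a partner of BATF, at 83.5 ± 9.503 CPM with anti-ACBP and 51.3 ± 2.10 CPM with isotype (edgeR adjusted p = 0.0094), and 0 passed in the other classes. Of 23 other bZIP genes, 21 were tested in each class. Of these, 1 fell in CD8 T cells, Nfil3, a transcription factor that represses clock and cytokine genes, at 68.1 ± 3.09 CPM with anti-ACBP and 108 ± 7.07 CPM with isotype (edgeR adjusted p = 0.0073), and 0 passed in the CD4 classes. Of these 13 named genes, 12 lost their call when at least 1 mouse was left out, and Sgk1 kept its call without each of the 6 mice.

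Fos, Jun and Atf3 are among the genes that rise when tissue is dissociated, so summed levels of the stress lists are given beside them. The 26 immediate early genes summed to 6101, 6375 and 7540.1 CPM in regulatory T cells of anti-ACBP mice, against 5114, 4801 and 4586 CPM in those of isotype mice. In CD8 T cells they summed to 3764, 3947 and 4302 CPM with anti-ACBP and 3689, 3675 and 3238 CPM with isotype. In conventional CD4 T cells isotype mouse 1, at 6790.4 CPM, lay inside the anti-ACBP range of 6713 to 8551 CPM. The 11 heat-shock chaperones went the other way on average (median log2 fold change -0.29 for CD8, -0.14 for conventional CD4 and -0.44 for regulatory T cells), with 0 passing in each class. Isotype mouse 1 had the highest chaperone sum in every class, 8506 CPM in regulatory T cells, and the groups' sums overlapped in each class. In conventional CD4 T cells the sums were 6436, 6055 and 5144 CPM with anti-ACBP and 8481, 4752 and 5511 CPM with isotype. In regulatory T cells they were 6408, 5151 and 4623 CPM with anti-ACBP, and 5003 and 5783 CPM in isotype mice 2 and 3. How far dissociation contributed to the members' differences was not tested.

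**Figure D2:**
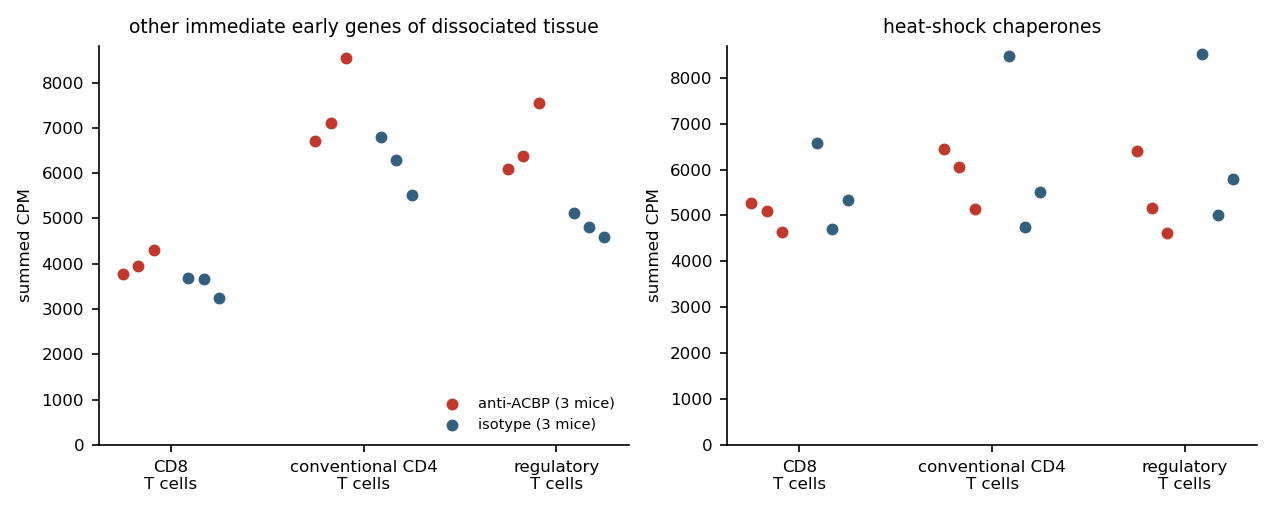
Summed CPM of 26 other immediate early genes (left) and 11 heat-shock chaperones (right) in each class; each point is a mouse, red anti-ACBP and blue isotype (3 mice each). Immediate early sums of anti-ACBP mice lie above those of isotype mice in CD8 and regulatory T cells, and isotype mouse 1 has the highest chaperone sum in each class.

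The difference of means had the same sign in all 9 clusters for 6 of the 8 genes, with exceptions for 4 of them when a mouse was left out. Anti-ACBP means were above isotype means in 9 of 9 clusters for Fos, Fosb, Batf and Atf3, without overlap between the mice in 6, 8, 4 and 7 of them. They were below in 9 of 9 clusters for Fosl2 and for Junb, without overlap in 8 clusters each. In cluster 7 the log2 difference of Fos was -0.14 without isotype mouse 3, whose Fos value there was 0 CPM, and that of Batf was -0.02 without anti-ACBP mouse 3. In cluster 8 the difference of Junb was 0.14 without anti-ACBP mouse 2, and that of Fosl2 was 0.16 without anti-ACBP mouse 2 and 0.15 without isotype mouse 1. Of all genes of at least 10 CPM, the groups were without overlap for 23.5%, 21.1%, 29.1%, 18.2%, 18.4%, 15.3%, 19.9%, 14.0% and 12.9% in clusters 0 to 8. Jun overlapped in all 9 clusters, and Jund was apart in 2, higher with anti-ACBP in cluster 2 and lower in cluster 4.

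Differences between clusters in the size of the treatment difference were not tested. On the log2(CPM + 1) scale, Fosb differed by 2.69 ± 0.80 in cluster 6 and by 1.11 ± 0.29 in cluster 3 (SE, 3 mice against 3), its highest and lowest values. For Fos the values ran from 1.597 ± 0.82 in cluster 1 to 2.34 ± 0.64 in cluster 5, at 197 ± 72.2 CPM with anti-ACBP and 41.2 ± 21.99 CPM with isotype (SD). Fosl2 differed by -1.13 ± 0.11 in cluster 3, by -0.17 ± 0.09 in the regulatory cluster 2 and -0.10 ± 0.37 in cluster 8. Junb differed by -1.02 ± 0.14 in cluster 3 and by -0.46 ± 0.18 in cluster 6. Atf3 differed by 1.94 ± 0.36 in cluster 2, at 19.3 ± 3.85 CPM with anti-ACBP and 4.50 ± 2.23 CPM with isotype (SD).

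**Figure D3:**
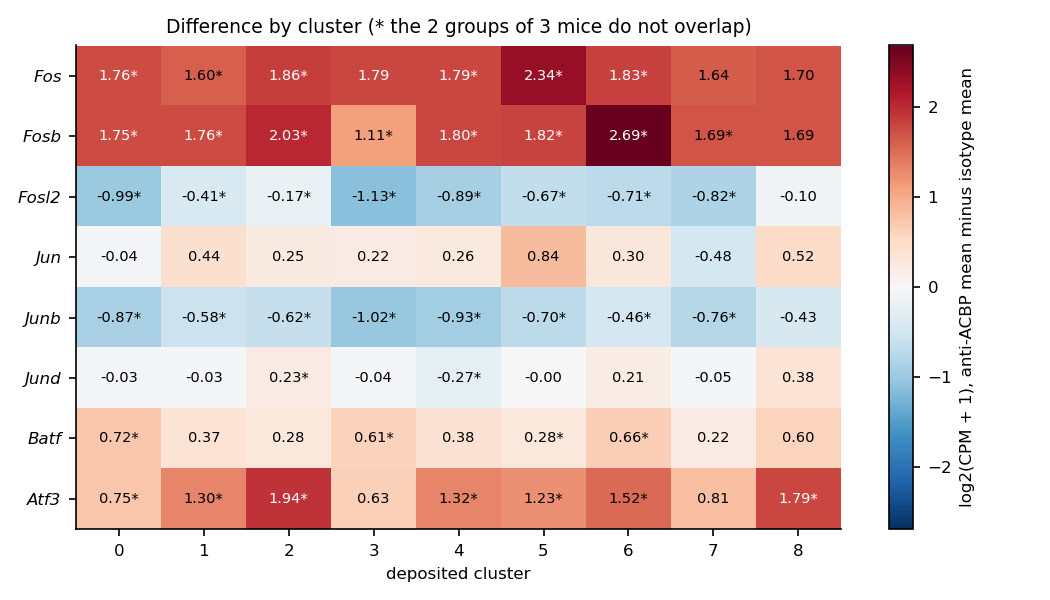
Difference between the anti-ACBP and isotype means of log2(CPM + 1) for each gene (rows) and deposited cluster (columns); red is higher and blue lower with anti-ACBP, and a star marks groups of 3 mice that do not overlap. Rows of Fos, Fosb, Batf and Atf3 are red and rows of Fosl2 and Junb blue in all 9 clusters; leaving out a mouse turned the sign of Fos and Batf in cluster 7 and of Fosl2 and Junb in cluster 8.

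Mean levels of Fos and Jun were highest in cluster 8, and those of Atf3 in clusters 5 and 8. Cluster 4 held only cells called S or G2M in the deposited phase column, and cluster 8 drew 330 of its 497 cells from isotype mouse 1. Fos averaged 286, 119, 64.7, 48.9, 34.2, 17.5, 17.1, 10.6 and 8.38 CPM over the 6 libraries in clusters 8, 5, 1, 2, 7, 6, 4, 3 and 0. Only the step below cluster 5 exceeded the spread of the within-library difference (SD over 6 libraries). Jun averaged 206, 69.2, 67.9, 38.3, 28.9, 26.6, 24.4, 19.8 and 19.5 CPM in clusters 8, 2, 5, 1, 3, 6, 4, 0 and 7. Cluster 8 was above cluster 2 in all 6 libraries, by 1.48 ± 0.55 log2 units (SD), and no other step exceeded its spread. Cluster 8 of the anti-ACBP mice rested on 46, 19 and 14 cells.

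Fosb averaged 107, 92.8, 72.7, 58.7, 34.8, 44.0, 34.2, 28.3 and 23.0 CPM in clusters 8, 5, 1, 7, 4, 6, 2, 0 and 3, ordered by mean log2 level, and only the step below cluster 7 exceeded its spread. Atf3 averaged 84.7, 87.2, 40.2, 32.1, 20.6, 16.3, 15.8, 13.4 and 11.9 CPM in clusters 5, 8, 1, 7, 6, 3, 4, 0 and 2, and only the step below cluster 7 exceeded its spread. Fosl2 varied less, averaging 186, 178, 157, 153, 144, 139.8, 125, 119 and 107 CPM in clusters 1, 5, 0, 7, 8, 2, 6, 3 and 4, with only the step below cluster 5 beyond its spread.

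Junb had its highest mean in cluster 7 and Batf in cluster 2. Junb averaged 2429.8, 2149, 1972, 1729, 1398, 912, 854, 774 and 674 CPM in clusters 7, 1, 5, 2, 8, 4, 6, 0 and 3, with the step below cluster 1 beyond its spread. Batf averaged 252, 231, 198, 192, 164, 99.6, 93.9, 89.7 and 88.6 CPM in clusters 2, 7, 1, 5, 8, 0, 4, 6 and 3, with the step below cluster 8 beyond its spread. The CD8 clusters 0, 3 and 6 held 3 of the last 4 places for each of these genes. Jund averaged 1895, 1799, 1559.6, 1523, 1487, 1476, 1311, 1319 and 1300.3 CPM in clusters 5, 7, 8, 1, 2, 0, 3, 6 and 4, and only its step from cluster 0 to cluster 3 exceeded its spread.

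**Figure D4:**
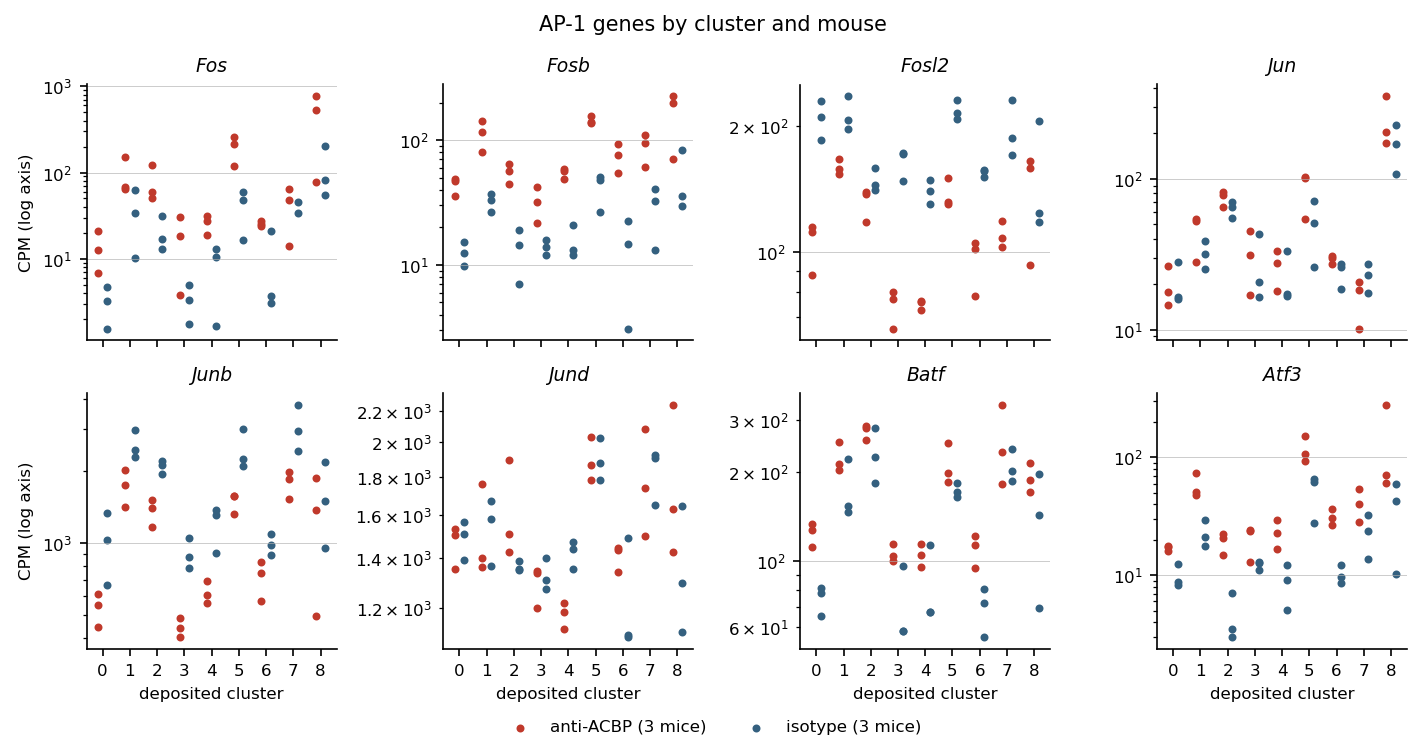
CPM of each gene (log axis, scaled per gene) in deposited clusters 0 to 8; each point is a mouse, red anti-ACBP and blue isotype (3 mice each). The means of Fos and Jun over the 6 mice are highest in cluster 8, that of Batf is lowest in cluster 3, and the cluster means of Jund span 1300.3 to 1895 CPM.

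The selection did not use the lineage of cells within a cluster, so CD4 lineage cells were tested against CD8 lineage cells inside clusters 1, 4 and 5, with the mouse as a block. Junb and Batf rose in CD4 lineage cells in all 3 clusters, and Jun fell in clusters 1 and 5. In cluster 1, 4 of 8 members were called (2 higher, 2 lower), against 20.1% of all genes (9.86% higher, 10.2% lower). The count was 4 of 8 in cluster 4 (all higher), against 16.1% (8.71% higher, 7.41% lower), and 5 of 8 in cluster 5 (2 higher, 3 lower), against 21.6% (10.4% higher, 11.2% lower).

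Batf in cluster 1 ranged over 155, 232 and 278 CPM (lowest, median and highest of 6 mice) in CD4 lineage cells and 79.9, 131 and 172 CPM in CD8 lineage cells. It rose by 0.70 ± 0.07 (log2, SE; edgeR adjusted p = 9.93e-08), and was higher in 6 of 6 mice. In cluster 4 it ranged over 127, 191 and 237 CPM in CD4 and 44.2, 66.6 and 105 CPM in CD8 lineage cells, a rise of 1.40 ± 0.12 (edgeR adjusted p = 1.76e-07). In cluster 5 it rose by 0.80 ± 0.11 (edgeR adjusted p = 8.04e-06). The 6 pairs of each cluster all pointed the same way.

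Junb ranged over 1249, 1933 and 2860.2 CPM in CD4 lineage cells of cluster 4, against 401, 639.9 and 1125 CPM in CD8 lineage cells, with no overlap. The rise was 1.5005 ± 0.16 (log2, SE; edgeR adjusted p = 0.00112). It was 0.39 ± 0.07 in cluster 1 (edgeR adjusted p = 0.000272) and 0.61 ± 0.09 in cluster 5 (edgeR adjusted p = 1.78e-05), higher in 6 of 6 mice in each.

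Jun went the other way. In cluster 1 it ranged over 14.3, 22.1 and 39.7 CPM in CD4 lineage cells and 40.8, 77.0 and 125 CPM in CD8 lineage cells, so that the lowest CD8 sum was above the highest CD4 sum. It fell by 1.66 ± 0.13 on the log2 scale (SE; edgeR adjusted p = 1.24e-09), lower in 6 of 6 mice. In cluster 5 it ranged over 16.997, 36.6 and 66.6 CPM in CD4 and 35.9, 94.7 and 141 CPM in CD8 lineage cells, and fell by 1.26 ± 0.23 (edgeR adjusted p = 0.00194), lower in 5 of 6 mice. In cluster 4 the difference was -0.20 ± 0.40 (edgeR adjusted p = 0.825), and the difference between clusters was not tested.

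Fos rose in CD4 lineage cells of cluster 4 by 1.68 ± 0.40 (log2, SE; edgeR adjusted p = 0.0309), with 0, 31.3 and 95.4 CPM in CD4 and 1.501, 11.9 and 24.4 CPM in CD8 lineage cells, where CD4 sums held as few as 25 cells. Restricted to cells with no UMI of the other lineage it did not pass (1.49, edgeR adjusted p = 0.216), nor without anti-ACBP mouse 3 (edgeR adjusted p = 0.0999) or isotype mouse 2 (edgeR adjusted p = 0.0923). Fosb rose there too, by 0.69 ± 0.15 (edgeR adjusted p = 0.00128), in 4 of 6 mice. In cluster 5 Fos fell by 0.60 ± 0.15 (edgeR adjusted p = 0.00635) and Atf3 by 0.56 ± 0.12 (edgeR adjusted p = 0.00143), and in cluster 1 Fosl2 fell by 0.29 ± 0.07 (edgeR adjusted p = 0.00296), each lower in 5 or 6 of 6 mice. Jund passed in none of the 3 clusters, with differences of -0.14 to 0.02.

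Cells called S or G2M in the deposited phase column were then compared with G1 cells of the same class and mouse. The CPM of Fosl2 and Jund fell in S or G2M cells of all 3 classes. S or G2M cells held more UMIs per cell than G1 cells in every class and mouse. In regulatory T cells of isotype mouse 1, 496 S or G2M cells held 9085673 UMIs and 900 G1 cells held 7070983. A lower CPM is a lower share of UMIs and need not mean fewer UMIs of the gene per cell, which was not tested. The comparison called 5 of 8 members in CD8 T cells (2 higher, 3 lower), against 62.8% of all genes tested (30.6% higher, 32.2% lower). Among conventional CD4 T cells it called 2 of 8 (0 higher, 2 lower), against 39.1% (20.2% higher, 18.9% lower), and among regulatory T cells 7 of 8 (1 higher, 6 lower), against 59.0% (29.1% higher, 29.9% lower). The counts in the CD8 and conventional CD4 classes do not exceed that background share.

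Fosl2 ranged over 96.9, 107 and 123 CPM in S or G2M regulatory T cells and 120.0, 164 and 204 CPM in G1 regulatory T cells (lowest, median and highest of 6 mice). It fell by 0.57 ± 0.06 on the log2 scale (SE; edgeR adjusted p = 4.68e-09), lower in 6 of 6 mice. It fell by 0.37 ± 0.06 in CD8 (edgeR adjusted p = 0.000462) and 0.40 ± 0.06 in conventional CD4 T cells (edgeR adjusted p = 3.31e-07), again in 6 of 6 mice each. Jund fell by 0.22 ± 0.03 for CD8, 0.18 ± 0.04 for conventional CD4 and 0.39 ± 0.05 for regulatory T cells, in 6 of 6 mice in each class (edgeR adjusted p at most 8.23e-05).

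Atf3 in regulatory T cells ranged over 1.69, 4.24 and 13.97 CPM in S or G2M cells and 4.32, 13.7 and 27.8 CPM in G1 cells. The S or G2M values rest on few Atf3 UMIs: in anti-ACBP mouse 3, 5.94 CPM of 506855 UMIs in 50 cells. Atf3 fell by 1.16 ± 0.20 in S or G2M regulatory T cells (log2, SE; edgeR adjusted p = 1.3e-05), lower in 6 of 6 mice. Jun also fell there, by 0.39 ± 0.08 (edgeR adjusted p = 0.000113), as did Fosb, by 0.44 ± 0.12 (edgeR adjusted p = 0.00166), and Junb, by 0.15 ± 0.04 (edgeR adjusted p = 0.00373). In CD8 T cells Fos rose by 0.25 ± 0.07 (edgeR adjusted p = 0.00201) and was higher in 6 of 6 mice, and Jun rose by 0.17 ± 0.07 (edgeR adjusted p = 0.0344), higher in 4 of 6 mice. Neither passed with DESeq2 (adjusted p = 0.0796 for Fos and 0.243 for Jun), and Jun did not pass without anti-ACBP mouse 1 (0.06, edgeR adjusted p = 0.462). Junb in regulatory T cells did not pass without isotype mouse 2 (-0.08, edgeR adjusted p = 0.118).

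Batf fell in S or G2M CD8 T cells by 0.29 ± 0.04 (log2, SE; edgeR adjusted p = 1.9e-06), at 55.2, 80.4 and 117 CPM in S or G2M cells and 67.8, 101 and 133 CPM in G1 cells. In regulatory T cells it rose by 0.13 ± 0.05 (edgeR adjusted p = 0.0488), but its CPM was higher in 3 of 6 mice, and it did not pass with RLE size factors (edgeR adjusted p = 0.0561) or without any of the 3 isotype mice in turn (edgeR adjusted p = 0.0740 to 0.111). Cluster 4 supplied 35.3% of S or G2M CD8 T cells and no G1 cell, 20.7% of S or G2M conventional CD4 T cells, and 1.96% of S or G2M regulatory T cells; its part in these differences was not tested.

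The change with phase was set against itself in regulatory and CD8 T cells of the same mice, a comparison added after the values were seen. The log2 ratio in regulatory T cells minus that in CD8 T cells averaged 0.37 ± 0.20 for Batf, positive in 6 of 6 mice, and -0.55 ± 0.41 for Jun and -0.65 ± 0.55 for Fos, each negative in 6 of 6 mice (SD). Each had an exact two-sided sign-flip p of 0.03125, the smallest that 6 mice allow, and an adjusted p of 0.0833 over the 8 genes. None passed the correction.

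**Figure D5:**
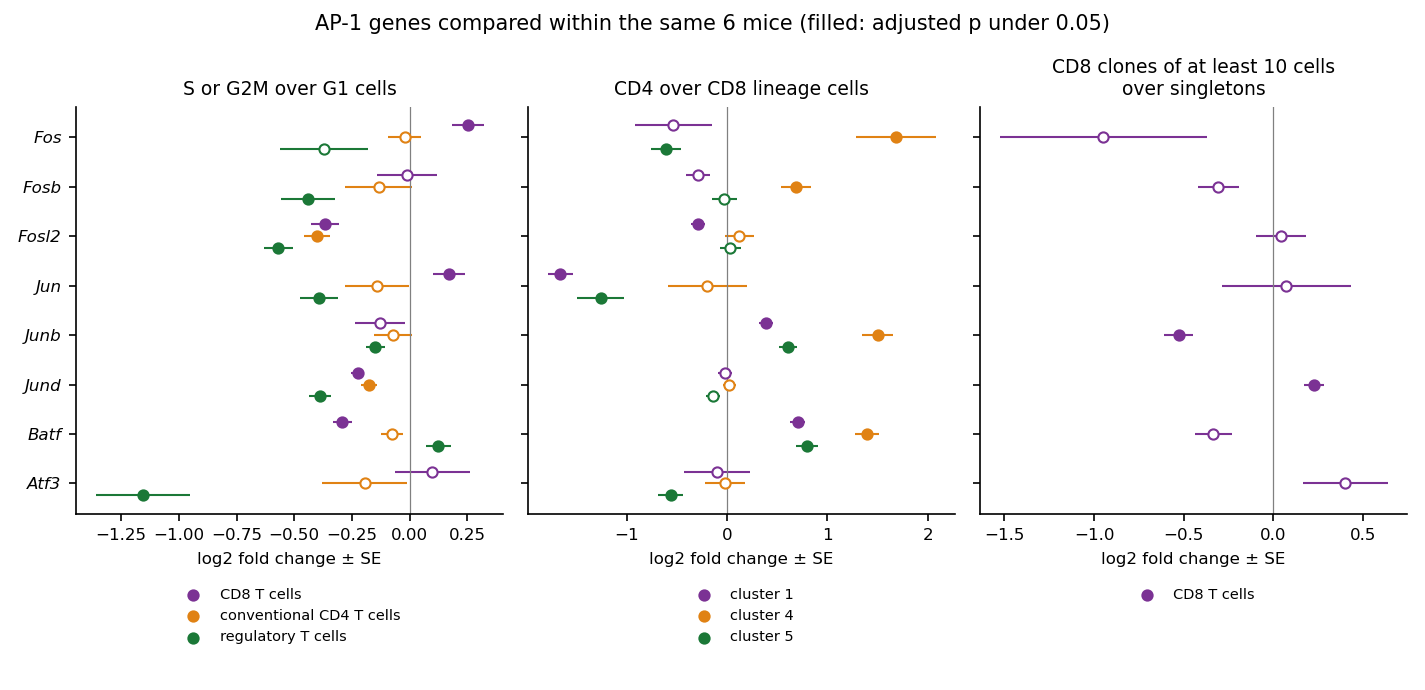
Log2 fold changes with SE (x axis) of the 8 genes (rows) between cells of the same 6 mice: S or G2M over G1 cells (left), CD4 over CD8 lineage cells within clusters 1, 4 and 5 (middle), and CD8 cells of clones of at least 10 cells over singletons (right). Filled points have an adjusted p under 0.05; Batf and Junb lie right of 0 in all 3 clusters, and Fosl2 and Jund lie left of 0 in all 3 classes.

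Clonal expansion was read from the T cell receptor table, which the selection did not use either. CD8 T cells of clones of at least 10 cells, 9708 cells, were compared with 773 singletons. Clone size was counted within each mouse among CD8 T cells with 1 TRB chain. A singleton's chain occurred once among those cells. The CD8 class also held CD4 lineage cells, at 5.05%, 3.33% and 3.69% in anti-ACBP mice 1, 2 and 3. The shares were 4.34%, 5.52% and 3.81% in isotype mice 1, 2 and 3. No fit was restricted to CD8 lineage cells here, so the part of lineage in the differences was not tested. Junb ranged over 465, 608 and 1285 CPM in large clones and 598, 1092 and 1494 CPM in singletons, and fell by 0.53 ± 0.08 (log2, SE; edgeR adjusted p = 0.00225), lower in 6 of 6 mice. Jund ranged over 1322, 1451 and 1562 CPM in large clones and 1022, 1311 and 1437 CPM in singletons, and rose by 0.23 ± 0.06 (edgeR adjusted p = 0.00991), higher in 5 of 6 mice. Jund did not pass without anti-ACBP mouse 2 (edgeR adjusted p = 0.0978), isotype mouse 2 (0.0579) or isotype mouse 3 (0.0531). These 2 of 8 members (1 higher, 1 lower) compare with 5.90% of all genes tested (2.60% higher, 3.30% lower).

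Batf did not pass between large clones and singletons (-0.34 ± 0.10, edgeR adjusted p = 0.0583), and neither did Fos, at 2.46, 9.97 and 39.6 CPM in large clones and 8.21, 38.3 and 56.4 CPM in singletons (-0.95 ± 0.58, edgeR adjusted p = 0.521). Fosb, Atf3, Jun and Fosl2 did not pass, with values from -0.31 to 0.40. Cluster 0 held 60.8% of large-clone cells and 61.4% of singletons. Cluster 3 held 16.7% of large-clone cells and 21.9% of singletons, and cluster 4 held 11.5% and 6.60% in the same order; their part in the differences was not tested.

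The genes whose levels most resembled each member were ranked by Pearson's r of log2(CPM + 1) over the 54 sums of cluster and library, among 7224 genes. The sums share libraries and treatment, and r is a description. Fos was most like Fosb (0.82), Cd69 (0.80) and Egr1 (0.80), and Fosb most like Egr1 (0.86), Rgcc (0.84) and Fos (0.82). Atf3 was most like Dusp6 (0.83), Fosb (0.80) and Taf7 (0.79). Jun was most like Klf6 (0.80), Zfp36 (0.75) and Hsp90aa1 (0.75).

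Fosl2 and Junb, the members lower in anti-ACBP mice, resembled each other (r = 0.74). Fosl2 was most like Per1 (0.76), Pim3 (0.75) and Junb (0.74), and Junb most like Hk2, a hexokinase (0.83), Dusp4 (0.83) and Rap1a (0.81). Batf was most like Stx11 (0.91), Nfkbia (0.90) and Marcksl1 (0.89), and Jund most like Ndfip1 (0.75), Sema7a (0.75) and Casp4 (0.73). Fosb and Fosl2, both FOS-family genes, had r = -0.28.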

How the data were processed

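Each deposited matrix lists raw UMI counts by gene and by cell barcode. The submitters' processing notes name Cell Ranger 7.0.0, Seurat and mm10 without their roles. Clusters, cell cycle phases and a column DF1 of unstated meaning come from the authors' deposited cell table. Receptor chains come from the authors' deposited contig table. The 30749 cells of the cell table, of 69249 barcodes, were used. Median depth was 6602.5, 7682 and 6676 UMIs per cell in anti-ACBP mice 1, 2 and 3. It was 7147.5, 4556 and 4516 UMIs per cell in isotype mice 1, 2 and 3. Depth sets the counting error behind each value, and its part in the group differences was not tested.

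Counts were summed per mouse and class, cluster or cell group, keeping sums of at least 10 cells. T cell receptor and immunoglobulin segments, Trac among them, were left out of the sums by class, phase, lineage and clone size. The cluster sums and the UMI totals printed above include them, so CPM by class and CPM by cluster rest on different totals. CPM is the gene's count per 1000000 UMIs of its sum. edgeR 4.0.16 in R 4.3.3 (TMM factors, filterByExpr, quasi-likelihood test, Benjamini-Hochberg adjustment over all genes tested, threshold 0.05) compared the 3 anti-ACBP with the 3 isotype mice; comparisons within mice used the mouse as a block. SE is the absolute log2 fold change over the square root of F. The steps were tested on simulated data. Within-cluster values are means of log2(CPM + 1) with no test.

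The members and gene lists were chosen with earlier results of these data known. Named were all 8 members, the 3 genes most like each, and up to 4 genes per list and class with the smallest p among those that passed. Alternatives were RLE size factors, no filter on low counts, DESeq2 1.42.0, the replicate number as a block, and leaving out each mouse, cluster 8, cells with 2 or more TRB chains, cells of DF1 FALSE, cells outside G1 and cells of mismatched lineage. Doublets were not called anew. In 2407 cells DF1 was FALSE, and 1028 cells had 2 or more TRB chains; they were kept.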

Additional observations from a re-analysis of the deposited data

Results flagged for a closer look

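Of 56 sets of 6 mice examined for a mouse far from the others by Dixon's ratio at its 95% critical value, 3 were set apart, and chance sets apart about 1 in 20. For Fos in CD4 against CD8 lineage cells of cluster 1, anti-ACBP mouse 1 had a log2 ratio of -1.96, against -0.25 to 0.60 in the other 5 mice. For Jun in CD4 against CD8 lineage cells of cluster 5, isotype mouse 3 had a log2 ratio of 0.58, against -1.99 to -1.04 in the other 5 mice. For Fosb in CD8 T cells of large clones against singletons, isotype mouse 3 had a log2 ratio of -0.71, against -0.33 to -0.14 in the other 5 mice.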

How the results depend on the processing

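Of 360 values of the members' anti-ACBP fold changes under 15 alternatives, 6 had the other sign, all of Jun or Jund. Fosb, Atf3, Fos, Fosl2, Junb and Batf kept their sign in each class. Genes called in CD8 T cells numbered 109, against 354 with no filter on low counts, 497 with DESeq2, 47 without cells of DF1 FALSE and 0 to 745 when a mouse was left out (0 without isotype mouse 3, where 1495 genes had an unadjusted edgeR p under 0.05, and 745 without isotype mouse 1). In conventional CD4 T cells 36 were called, against 295 with no filter, 218 with DESeq2, 4 with matched lineage and 2 to 139 without a mouse. In regulatory T cells 348 were called, against 819 with no filter, 213 with matched lineage, 159 in G1 cells and 44 to 774 without a mouse. Leaving out a mouse or a filter changes the samples or genes tested; other causes were not tested.

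Whether the replicate numbers pair the mice could not be told from 3 mice per group. Same-numbered mice correlated at 0.20, 0.05 and -0.23 in CD8 and 0.11, -0.17 and -0.14 in conventional CD4 T cells. In regulatory T cells they correlated at 0.27, -0.15 and -0.10. In each class 2 of 6 correlated best with their own number. With the replicate block 157, 8 and 372 genes were called in the same order of classes, and of the lists 1 target gene in CD8, 0 target genes in conventional CD4, and 1 other bZIP gene and 6 chaperones in regulatory T cells. With no replicate block, 4536 genes were called between phases in CD8 (6834 with it), 2031 in conventional CD4 (3828), 1039 between lineages in cluster 1 (1687) and 205 between clone sizes (592). DESeq2 called 2514 between phases in conventional CD4, 1111 between lineages in cluster 1 and 787 in cluster 5 (1477 in edgeR).

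For the lists, DESeq2 called 2 other bZIP genes, 1 partner, 4 immediate early genes and 1 chaperone in CD8, 1 partner, 5 targets and 8 immediate early genes in conventional CD4, and 7 targets, 15 immediate early genes and 1 chaperone in regulatory T cells. No filter gave 2 other bZIP and 3 immediate early genes in CD8, 3 immediate early genes in conventional CD4, and 3 other bZIP genes and 6 targets in regulatory T cells. In regulatory T cells G1 cells alone gave 0 targets and 5 immediate early genes, matched lineage 5 immediate early genes, and leaving out DF1 FALSE 7 targets. Matched lineage gave 0 targets in conventional CD4, as did leaving out cells of 2 or more TRB chains; without cluster 8 there was 1 target and 1 immediate early gene, and in CD8 2 immediate early genes.

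Leaving out a mouse gave ranges in CD8 of 0 to 1 targets, partners and other bZIP genes and 0 to 10 immediate early genes. In conventional CD4 they were 0 to 2 targets, 0 to 1 other bZIP genes and 0 to 8 immediate early genes. In regulatory T cells they were 0 to 9 targets, 0 to 1 MAP kinase and other bZIP genes, 0 to 2 partners and 1 to 10 immediate early genes.

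Averaging each cell's own CPM moved the mean log2 level of Fosl2 in cluster 2 to 7.34, Jun in cluster 2 to 6.45 and Jund in cluster 5 to 11.01, and the Jun difference in cluster 8 to 1.28. Among the within-mouse fold changes, 32 values that missed the threshold changed sign, the largest 0.34 in size. Under alternatives other than leaving out a mouse, members lost their call in 7 of 32 phase values for CD8. The counts were 1 of 32 for conventional CD4 and 7 of 32 for regulatory T cells. Between lineages they were 2, 3 and 4 of 40 in clusters 1, 4 and 5, and between clone sizes 2 of 40. With a mouse left out, 3 of 48 phase values for CD8 lost their call. The losses named above are part of these. By Spearman's rho, 14 of 24 likeness genes stayed among the first 3; the others had rho of 0.793 (Fos and Egr1), 0.800 (Fosb and Fos), 0.701 (Fosl2 and Pim3), 0.694 (Fosl2 and Junb), 0.665 (Jun and Klf6), 0.594 (Jun and Hsp90aa1), 0.804 (Junb and Rap1a), 0.683 (Jund and Sema7a), 0.867 (Batf and Marcksl1) and 0.767 (Atf3 and Dusp6).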
